A study of Homo sapiens with 9 samples.

Results

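The translesion and error-prone DNA polymerases examined here are 10 genes of the 20442 in the table: POLH, POLI, POLK, REV1, REV3L, MAD2L2, POLQ, POLN, POLL and POLM. They were chosen by symbol. Each gene was represented by its deposited row with the highest mean over the 9 libraries, and 10 of 10 passed the filter on low values, against 12391 of 20442 genes in all.

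RNA was measured in PC9 cells, a lung adenocarcinoma line of human origin with an activating EGFR mutation, by strand-specific poly(A) RNA-seq with 75 bp single-end reads. All groups carried the FUCCI4 reporter, with the marker proteins mKO2-CDT1 and Clover-GMNN, and all were fixed with glyoxal, permeabilised with saponin and sorted into G1, S and G2 by DAPI and reporter signal. The day 28 groups had been kept in 500 nM osimertinib, an EGFR kinase inhibitor, and comprised 2 G1 libraries (clones 1 and 7), 1 S library (clone 1) and 1 G2 library (clone 1). The untreated day 0 groups comprised 2 G1 libraries (clones 1 and 7), 2 S libraries (clones 1 and 7) and 1 G2 library (clone 1). No label says that libraries were cultured apart, so p-values measure the spread between these libraries, which may be technical. What the groups can model is limited to 2 clones of 1 line, with clone 1 alone in G2 and in S at day 28.

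Most replication is carried out by accurate polymerases that stall at damaged bases. Translesion polymerases have more open active sites and copy across the damage at the cost of errors: REV1 recruits the Y-family enzymes POLH, POLI and POLK to insert a base, and polymerase zeta, with REV3L as its catalytic and MAD2L2 as an accessory subunit, extends from it. POLQ joins broken ends through short homologies, POLL and POLM fill gaps during non-homologous end joining, and POLN is an A-family enzyme able to bypass some lesions and cross-links. In cancer cells these enzymes are known as a source of mutations and as a route of tolerance to replication stress and DNA-damaging drugs.

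The start-site windows of 5 members are shown for their sequence context, as RefSeq gives them on GRCh38.p14 from 250 bases before to 50 after an annotated start. The called members REV1, POLI and POLM are not among the 5. They lie at chr6:111483169-111483468 (REV3L, minus strand), chr4:2242072-2242371 (POLN, minus strand), chr1:11681099-11681398 (MAD2L2, minus strand), chr3:121545939-121546238 (POLQ, minus strand) and chr6:43575935-43576234 (POLH, plus strand). Capitals mark matches, on either strand, to an E2F-like motif (TTTNNCGC), the cell cycle homology region (TTTGAA) or the CCAAT box (CCAAT).
REV3L: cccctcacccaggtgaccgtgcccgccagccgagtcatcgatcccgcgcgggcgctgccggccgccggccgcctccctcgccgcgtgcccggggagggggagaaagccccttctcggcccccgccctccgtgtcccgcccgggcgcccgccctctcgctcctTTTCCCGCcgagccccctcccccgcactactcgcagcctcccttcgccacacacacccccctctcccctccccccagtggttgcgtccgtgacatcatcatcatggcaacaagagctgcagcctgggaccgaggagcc
POLN: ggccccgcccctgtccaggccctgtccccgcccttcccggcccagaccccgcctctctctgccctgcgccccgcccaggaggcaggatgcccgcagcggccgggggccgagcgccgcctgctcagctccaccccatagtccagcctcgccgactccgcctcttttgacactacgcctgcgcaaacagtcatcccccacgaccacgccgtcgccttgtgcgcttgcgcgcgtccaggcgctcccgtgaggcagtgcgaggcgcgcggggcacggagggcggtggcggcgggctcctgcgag
MAD2L2: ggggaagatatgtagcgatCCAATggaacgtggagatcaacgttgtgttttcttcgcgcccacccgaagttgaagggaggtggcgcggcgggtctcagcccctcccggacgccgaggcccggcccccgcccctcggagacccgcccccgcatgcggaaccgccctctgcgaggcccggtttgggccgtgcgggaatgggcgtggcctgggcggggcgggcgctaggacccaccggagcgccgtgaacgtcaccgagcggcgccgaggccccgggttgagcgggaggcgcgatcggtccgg
POLQ: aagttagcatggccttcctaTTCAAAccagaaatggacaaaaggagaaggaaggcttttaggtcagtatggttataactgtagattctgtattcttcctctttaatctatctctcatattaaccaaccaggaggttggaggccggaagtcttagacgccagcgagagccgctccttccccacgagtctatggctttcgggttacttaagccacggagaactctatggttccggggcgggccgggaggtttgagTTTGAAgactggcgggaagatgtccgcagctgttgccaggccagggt
POLH: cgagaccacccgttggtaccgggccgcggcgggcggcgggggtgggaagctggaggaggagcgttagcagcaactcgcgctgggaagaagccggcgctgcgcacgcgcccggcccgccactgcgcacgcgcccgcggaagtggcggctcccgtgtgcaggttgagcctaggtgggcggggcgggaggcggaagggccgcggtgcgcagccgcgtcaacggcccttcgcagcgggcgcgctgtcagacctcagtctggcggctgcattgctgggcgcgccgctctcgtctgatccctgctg
Positions are counted from the start site, negative upstream. REV3L held 1 E2F-like match starting at -88, as 6.89% of 35116 promoter windows held one. POLQ held 2 matches to the cell cycle homology region, starting at -230 and 3, a motif found in 15.2% of windows. MAD2L2 held 1 CCAAT box starting at -231, found in 34.6% of windows. POLN and POLH held none of the 3. RefSeq gives REV3L and MAD2L2 a further window each, from a start farther upstream. Those hold none of the 3, with 7 GC boxes in REV3L and 3 in MAD2L2. All 5 windows shown held at least 1 GC box (GGGCGG, either strand, not capitalised), with 5 in MAD2L2, 4 in POLN, 3 each in REV3L and POLH and 1 in POLQ, a motif found in 45.0% of windows. No match overlapped a match to another motif. Over the windows of all 10 members, 2 members held an E2F-like match, 1 the cell cycle homology region, 3 a CCAAT box and 8 a GC box. A match is a string of letters and no evidence of binding. The POLN window also holds the annotated start of the neighbouring gene HAUS3 (chromosome 4, 2227464 to 2242164), a subunit of the augmin complex of the mitotic spindle.

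Over 1 span per gene, the 4 day 28 libraries held 30.5 to 43.1 M reads and the 5 day 0 libraries 8.83 M (G1 clone 7) to 108.7 M (G1 clone 1), with a mean of 43.0 M over all 9, more than the labels state. Silent genes gave a measure of stray reads: 400 olfactory receptor genes held 0.00821 to 0.0273 RPKM (reads per kb of span, scaled to 1 M reads in the library) at day 28, against 0.00112 to 0.00492 at day 0, and mitochondrial transcripts took 8.61% to 21.6% of reads at day 28, against 6.07% to 10.7% at day 0. All 6 epithelial markers had reads in every library, with summed levels of 11966 to 23109 CPM (reads per 1 M reads) at day 28 and 18552 to 29588.5 at day 0. The 6 leukocyte markers summed to 2.48 to 5.13 at day 28 and 5.21 to 12.8 at day 0. The 7 fibroblast and endothelial markers summed to 20.1 to 53.3 CPM at day 28 and 19.2 to 26.5 at day 0. At least 5 of them had reads in each day 28 library and at least 4 in each day 0 library. The fibroblast marker LUM was at 0 in 3 of 4 day 28 and 5 of 5 day 0 libraries. Of the 7, 3 passed the filter on low values. Over all phases 0 of these were higher and 2 lower at day 28 (limma, adjusted p under 0.05), as 28.6% and 26.6% of all tested genes were. The day 0 G1 clone 7 library, the shallowest, differed from the other day 0 G1 library in some phase genes but not in all. On the log2 scale the proliferation antigen MKI67 was at 13.39 in clone 7 and 11.28 in clone 1. Cyclin B1, CCNB1, was at 14.75 in clone 7 and 13.38 in clone 1, and PCNA at 15.69 and 15.38. CCNA2 stood at 12.03 in clone 7 and 12.04 in clone 1. CCNE2 (9.64 and 10.89) and MCM6 (13.61 and 14.16) were lower in clone 7. Differences of the members between days, called differences and list counts are therefore given without the day 0 G1 clone 7 library as well.

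Per kb of coding span, by the mean over the libraries of a day, MAD2L2 was the highest member at both days and POLN the lowest. Single libraries differed. In day 28 G1, MAD2L2 (2.08 RPKM in clone 1, 2.03 in clone 7) lay below POLM, POLL and REV1, which were at 2.30 to 5.66. In day 28 G1 clone 7, POLQ (0.103), POLK (0.128) and POLH (0.133) lay below POLN (0.135). Levels in RPKM over the span at day 28 were 4.45 ± 3.08 for MAD2L2, 4.40 ± 1.45 for POLM, 2.24 ± 0.639 for POLL, 1.93 ± 0.496 for REV1, 0.544 ± 0.298 for POLI, 0.472 ± 0.359 for POLQ, 0.407 ± 0.277 for POLH, 0.322 ± 0.0389 for REV3L, 0.201 ± 0.0530 for POLK and 0.141 ± 0.00714 for POLN (SD, n = 4). At day 0 they were 6.42 ± 1.85 for MAD2L2, 1.98 ± 0.569 for POLM, 1.51 ± 0.268 for POLL, 0.792 ± 0.246 for REV1, 0.219 ± 0.0605 for POLQ, 0.217 ± 0.0385 for POLI, 0.206 ± 0.0946 for POLH, 0.123 ± 0.0250 for POLK, 0.0789 ± 0.0145 for REV3L and 0.0310 ± 0.00612 for POLN (SD, n = 5). At day 28 the ranges of neighbours in this order overlapped except between POLM and POLL, REV1 and POLI, and REV3L and POLK. At day 0 they overlapped from POLM to POLL and from POLQ through POLI and POLH to POLK, and every other pair of neighbours was apart. REV3L stood above POLK at day 28 and below it at day 0. The span runs from start to stop codon with its introns, so genes with long introns are low on this scale: exons made up 28.7% of the MAD2L2 span and 4.44% of the POLN span.

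Over all phases, 5 members rose after 28 days of osimertinib and 1 fell. REV3L and POLN rose most, followed by REV1, POLI and POLM, and MAD2L2 fell. REV3L and POLN have the longest spans of the members (182.9 and 157.1 kb) and MAD2L2 the shortest (5.83 kb), against a median of 25.8 kb over tested genes. POLQ, with 113.6 kb, was not called, and POLM, with 9.38 kb, rose. With each library's trend with span length removed, the log2 fold changes were 0.69 for REV3L and 1.01 for POLN. The cause of this order was not tested. By limma with Benjamini-Hochberg adjustment at 0.05, with day and phase as terms, 28.6% of all tested genes were called higher and 26.6% lower, 55.1% in either direction, so 6 of 10 called members is a share near the background. The median log2 fold change was 0.75 over the members and 0.01 over all tested genes. REV3L and POLN were the only members whose day 28 libraries all lay above their day 0 libraries, a pattern held by 20.9% of tested genes, and no member had all day 28 libraries below, as 18.9% did. In bulk libraries, fewer cells that express a gene and less RNA per cell cannot be told apart. All log2 values that follow are of scaled reads over the coding span plus 1, and each fold change is day 28 over day 0 unless another contrast is named.

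**Figure D1:**
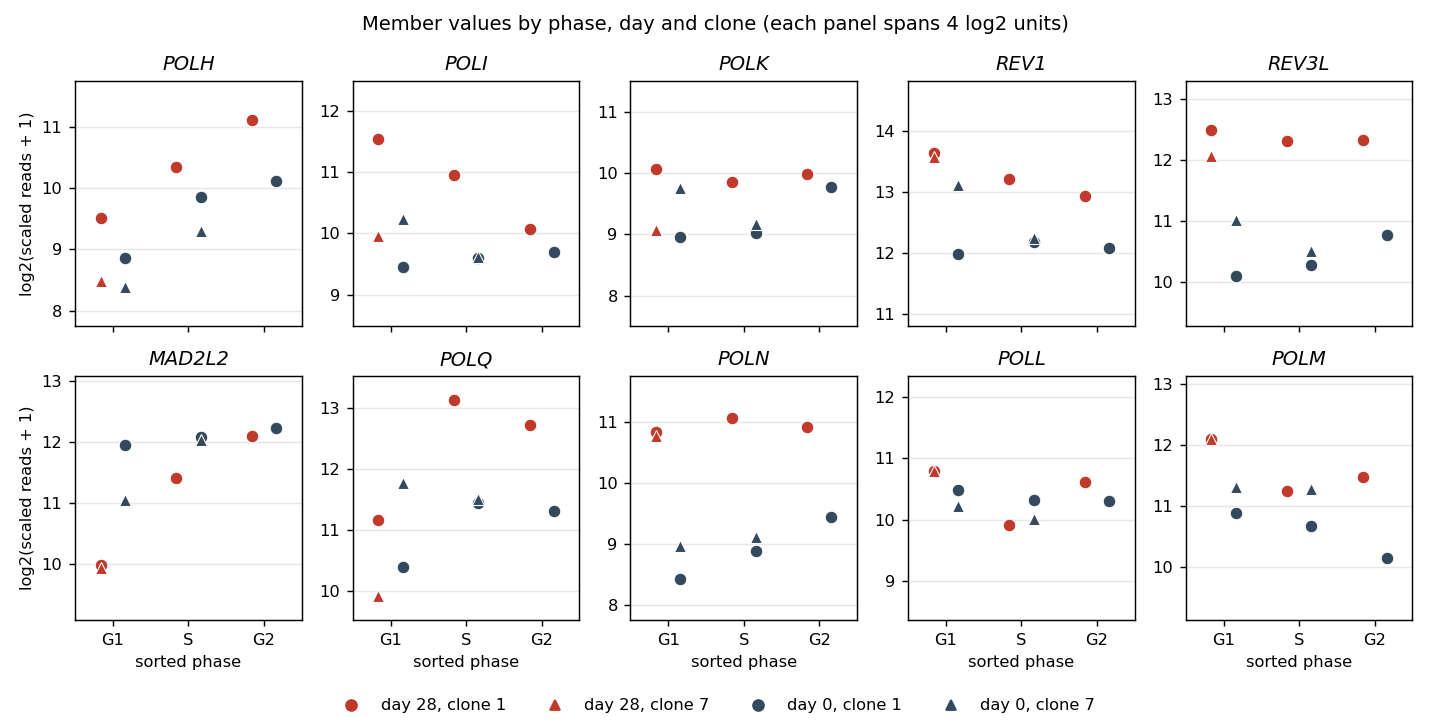
Log2 values of the 10 members in each library, by sorted phase (horizontal axis), with day 28 in red left of day 0 in dark grey, circles for clone 1 and triangles for clone 7. REV3L and POLN are the panels in which the days do not overlap, at 12.07 to 12.49 and 10.78 to 11.07 at day 28 against 10.10 to 11.03 and 8.44 to 9.45 at day 0.

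Polymerase zeta's catalytic subunit REV3L (ENSG00000009413, GRCh38 chromosome 6, 111300016 to 111482888, minus strand, 32 coding exons) had log2 values of 12.49 and 12.07 in G1 (clones 1 and 7), 12.32 in S and 12.33 in G2 at day 28, against 10.10 and 11.03 in G1, 10.28 and 10.52 in S and 10.78 in G2 at day 0. Every day 28 library lay above every day 0 library, and the highest day 0 library was G1 clone 7. The log2 fold change was 1.74 ± 0.24 (SE), or 3.35-fold (limma, Benjamini-Hochberg adjusted p = 0.000189). Its difference was 0.69 (adjusted p = 0.0116) once each library's trend with span length was removed, and 1.92 (adjusted p = 0.000101) without day 0 G1 clone 7.

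MAD2L2 (also REV7; ENSG00000116670, chromosome 1, 11674775 to 11680601, minus strand), the accessory subunit that links REV3L to REV1 and also serves in the shieldin complex at DNA breaks, went the other way. It stood at 9.99 and 9.93 in G1 (clones 1 and 7), 11.41 in S and 12.11 in G2 at day 28, against 11.94 and 11.04 in G1, 12.08 and 12.04 in S and 12.23 in G2 at day 0. Both day 28 G1 libraries were below every day 0 library, while the day 28 S and G2 libraries lay within the day 0 range. The log2 fold change was -0.94 ± 0.28 (SE), or 0.523-fold (limma, adjusted p = 0.0142), and -0.99 (adjusted p = 0.0182) without day 0 G1 clone 7. The catalytic subunit of polymerase zeta was thus higher at day 28 and its partner lower. Per kb of span MAD2L2 stayed above REV3L in every library, on a scale where genes with long introns are low. In CPM, not divided by span, REV3L was at 52.1 to 68.9 and MAD2L2 at 11.8 to 49.5 at day 28. At day 0 REV3L was at 11.4 to 18.4 CPM and MAD2L2 at 18.6 to 45.5. Which subunit had more transcripts was not tested.

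REV1 (ENSG00000135945, chromosome 2, 99401241 to 99464975, minus strand), the scaffold that brings the Y-family enzymes to the primer and itself inserts cytosine, had 13.64 and 13.57 in G1 (clones 1 and 7), 13.21 in S and 12.94 in G2 at day 28, against 11.99 and 13.11 in G1, 12.18 and 12.24 in S and 12.08 in G2 at day 0. The days overlapped through 1 library, day 0 G1 clone 7, which lay above the day 28 G2 library. Its log2 fold change was 0.99 ± 0.23 (SE), or 1.99-fold (limma, adjusted p = 0.00344), and 1.19 (adjusted p = 0.000803) without day 0 G1 clone 7. The call was lost when each gene was represented by its row of middle level (0.70, adjusted p = 0.0939).

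Of the Y-family inserters that REV1 recruits, POLI rose and POLH and POLK did not pass the test. POLI (ENSG00000101751, chromosome 18, 54282906 to 54320367, plus strand), an unusually error-prone enzyme, had 11.54 and 9.95 in G1 (clones 1 and 7), 10.95 in S and 10.08 in G2 at day 28, against 9.45 and 10.24 in G1, 9.59 and 9.62 in S and 9.70 in G2 at day 0. Day 28 clone 1 was highest in G1 and S, and the days overlapped through day 0 G1 clone 7. The log2 fold change was 0.92 ± 0.35 (SE; limma, adjusted p = 0.0418), and 1.06 (adjusted p = 0.0301) without day 0 G1 clone 7. The call was lost with median-of-ratios scaling (adjusted p = 0.0600), quantile normalization (0.157), removal of the span trend (0.0536) and subtraction of background (0.0633), and without any one of day 0 G1 clone 1 (0.105), day 0 S clone 1 (0.0726), day 0 S clone 7 (0.0658), day 28 G1 clone 1 (0.146) or day 28 S (0.186). The POLI row used begins after the start codon and its transcript holds 425 coding bases in 4 coding exons. The row that holds the start codon gave 0.91 (adjusted p = 0.0445).

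POLH (ENSG00000170734, chromosome 6, 43582320 to 43614557, plus strand), the enzyme that copies ultraviolet photoproducts accurately and is lost in the variant form of xeroderma pigmentosum, spanned 8.48 to 11.12 at day 28 and 8.39 to 10.12 at day 0. Its log2 fold change was 0.64 ± 0.31 (SE, 95% interval -0.04 to 1.32; limma, adjusted p = 0.0983). It stood at 0.61 (adjusted p = 0.150) without day 0 G1 clone 7. It passed without the day 28 G1 clone 7 library (0.88, adjusted p = 0.0229). POLK (ENSG00000122008, chromosome 5, 75547023 to 75598018, plus strand), which bypasses bulky adducts on guanine, spanned 9.07 to 10.06 at day 28 and 8.96 to 9.78 at day 0, with a log2 fold change of 0.38 ± 0.31 (SE, 95% interval -0.30 to 1.07; limma, adjusted p = 0.314). It was 0.56 (adjusted p = 0.161) without day 0 G1 clone 7. Quantile normalization put POLK at -0.0077, so no direction is given for it. The first 26.7 kb of the POLK span held 24, 20, 42 and 0 reads in day 28 G1 clone 1, G1 clone 7, S and G2, against 27, 2, 12, 9 and 49 in day 0 G1 clone 1, G1 clone 7, S clone 1, S clone 7 and G2, too few to test apart.

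**Figure D2:**
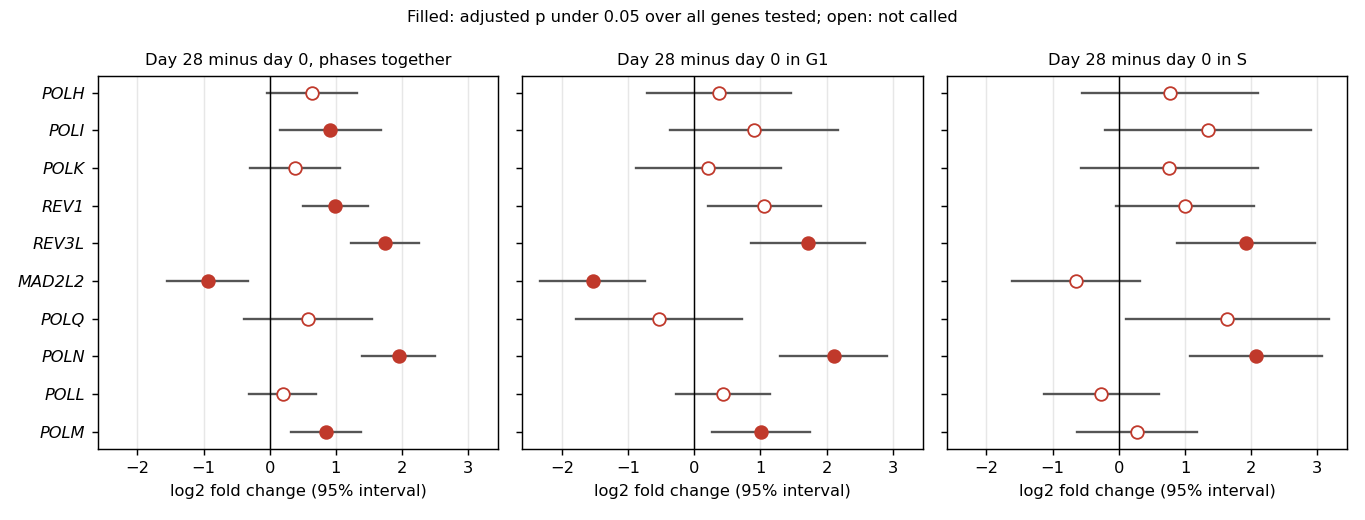
Log2 fold change of day 28 over day 0 for each member with its 95% interval, over all phases (left), in G1 (middle) and in S (right), with filled circles for an adjusted p under 0.05 over all tested genes. REV3L and POLN are filled in all 3 panels, and MAD2L2 lies left of 0 in each.

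The A-family members differed from each other. POLN (ENSG00000130997, chromosome 4, 2072114 to 2229231, minus strand) had 10.84 and 10.78 in G1 (clones 1 and 7), 11.07 in S and 10.92 in G2 at day 28, against 8.44 and 8.97 in G1, 8.89 and 9.11 in S and 9.45 in G2 at day 0. The 4 day 28 libraries lay close together and above every day 0 library. The log2 fold change was 1.95 ± 0.25 (SE), or 3.86-fold (limma, adjusted p = 0.000158), with 1.01 (adjusted p = 0.00398) once the span trend was removed and 2.02 (adjusted p = 0.000206) without day 0 G1 clone 7. Its span overlaps the end of HAUS3 on the same strand by 1768 bases. HAUS3 had 11.26 to 12.54 at day 28 and 11.39 to 12.03 at day 0, with a log2 fold change of 0.25 ± 0.22 (SE; limma, adjusted p = 0.358), and the shorter POLN row that ends before HAUS3 gave 2.22 (adjusted p = 0.00201).

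POLQ (ENSG00000051341, chromosome 3, 121432304 to 121545877, minus strand), polymerase theta, had 11.18 and 9.93 in G1 (clones 1 and 7), 13.13 in S and 12.72 in G2 at day 28, against 10.40 and 11.78 in G1, 11.45 and 11.52 in S and 11.32 in G2 at day 0. The day 28 S and G2 libraries were above every day 0 library, and day 28 G1 clone 7 was below every one. Over all phases the log2 fold change was 0.58 ± 0.44 (SE, 95% interval -0.39 to 1.55; limma, adjusted p = 0.283), with -0.12 once the span trend was removed. The difference was called in clone 1 alone (1.29, adjusted p = 0.000298), without day 0 G1 clone 7 (1.04, adjusted p = 0.0251) and without day 28 G1 clone 7 (1.01, adjusted p = 0.0364).

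Of the X-family gap fillers, POLM rose and POLL did not pass the test. POLM (ENSG00000122678, chromosome 7, 44073062 to 44082438, minus strand), which can extend ends that hardly pair, had 12.10 in G1 of both clones, 11.25 in S and 11.48 in G2 at day 28, against 10.89 and 11.31 in G1 (clones 1 and 7), 10.67 and 11.28 in S and 10.16 in G2 at day 0. The days overlapped through the day 28 S library, which lay below the day 0 clone 7 libraries. The log2 fold change was 0.86 ± 0.24 (SE), or 1.81-fold (limma, adjusted p = 0.0107), and 0.91 (adjusted p = 0.0143) without day 0 G1 clone 7. The call was lost without the day 28 G2 library (0.71, adjusted p = 0.0513) and with the row of middle level (0.70, adjusted p = 0.0876). POLL (ENSG00000166169, chromosome 10, 101579453 to 101587360, minus strand) spanned 9.91 to 10.79 at day 28 and 10.02 to 10.48 at day 0, with a log2 fold change of 0.20 ± 0.23 (SE, 95% interval -0.31 to 0.70; limma, adjusted p = 0.488), with 0.11 without day 0 G1 clone 7 and -0.10 under quantile normalization.

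In G1, the phase with 2 libraries at each day, REV3L (1.72 ± 0.37, adjusted p = 0.0111), POLN (2.11 ± 0.35, adjusted p = 0.00531) and POLM (1.00 ± 0.32, adjusted p = 0.0401) rose and MAD2L2 fell (-1.53 ± 0.34, adjusted p = 0.0125; log2 fold changes with SE from limma). Among all tested genes 19.8% were called higher and 19.1% lower, 39% in either direction. REV1 stood at 1.06 ± 0.37 (adjusted p = 0.0535), and at an adjusted p of 0.0352 in the fit with a replicate block for clone. POLQ stood at -0.54 ± 0.54 (adjusted p = 0.451), with 0.09 without day 28 G1 clone 7 and 0.15 without day 0 G1 clone 7. The remaining members, POLH, POLI, POLK and POLL, lay between 0.21 and 0.90 and did not pass. Without day 0 G1 clone 7 the 4 calls stood, at 2.18 for REV3L, 2.37 for POLN, 1.22 for POLM and -1.98 for MAD2L2, and REV1 passed at 1.62 (adjusted p = 0.00958). Without day 28 G1 clone 1, POLN alone was called. Leaving out day 28 G1 clone 7 instead ended the MAD2L2 call (adjusted p = 0.0558), and the REV3L call was lost with the span trend removed (0.63, adjusted p = 0.120). That of POLM was lost with its row of middle level (adjusted p = 0.239) and without any one of day 0 G1 clone 1, day 0 S clone 1, day 0 S clone 7, day 28 G1 clone 1 or day 28 G1 clone 7 (0.0560 to 0.153).

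In S, where 1 day 28 library met 2 at day 0 and was assumed to vary like the other groups, POLN (2.07 ± 0.43, adjusted p = 0.0387) and REV3L (1.92 ± 0.45, adjusted p = 0.0476; limma) rose. Among all tested genes 7.27% were called, 542 (4.37%) higher and 359 (2.9%) lower, and median-of-ratios scaling turned that split to 533 higher and 614 lower. POLQ at 1.64 ± 0.66 (adjusted p = 0.139) and REV1 at 1.00 ± 0.45 (adjusted p = 0.172) did not pass, and the other 6 members lay between -0.65 and 1.34. Both calls were lost when the span trend was removed and without either day 0 S library or either day 28 G1 library, with adjusted p between 0.0682 and 0.148. The REV3L call was also lost with background subtracted (1.88, adjusted p = 0.0564), and that of POLN with quantile normalization (1.69, with an adjusted p just over the threshold) and with its shorter row (1.56, adjusted p = 0.216). Both stood without day 0 G1 clone 7, at adjusted p of 0.0249 for POLN and 0.0243 for REV3L. In G2, with 1 library at each day and no test, 9 of 10 members were higher at day 28, by 0.22 (POLK) to 1.55 (REV3L), and MAD2L2 stood at -0.12. Of all tested genes, 50.5% were higher in the day 28 G2 library, and the members' count was 7 with quantile normalization.

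Between the sorted phases, POLH was the member that differed. Its log2 values were 9.52 and 8.48 in G1 (clones 1 and 7), 10.35 in S and 11.12 in G2 at day 28, and 8.86 and 8.39 in G1, 9.86 and 9.30 in S and 10.12 in G2 at day 0. The order G1, S, G2 held at each day, and each G1 library lay below the S library of its own day and clone where there was one. G2 exceeded G1 by 1.81 ± 0.39 (SE), or 3.51-fold (limma with day and phase, adjusted p = 0.0376), in a comparison that called 2.24% of all tested genes, 1.61% higher. A replicate block for clone ended the call (1.48, adjusted p = 0.0784), as did subtraction of background (1.83, adjusted p = 0.0538) and leaving out any one of 6 libraries (adjusted p 0.0600 to 0.553), namely day 0 S clone 1, day 0 G2 and each of the 4 day 28 libraries. It held at 1.77 (adjusted p = 0.0476) without day 0 G1 clone 7. POLH lies opposite GTPBP2 over 9242 bases at its 3′ end, a gene that rose by 1.45 ± 0.20 over the days (limma, adjusted p = 0.000212) and stood at 0.68 ± 0.26 in G2 against G1 (adjusted p = 0.193). Strands were kept apart in the counting. In the day 0 G1 clone 1 library, genes on the opposite strand inside a longer gene held more reads than it in 42 of 125 pairs. Genes on the same strand did so in 0 of 807. The other libraries were not checked in this way, and stray reads from the opposite strand were not measured.

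MAD2L2 in G2 stood 1.44 ± 0.35 above G1 (adjusted p = 0.0641), POLQ 1.20 ± 0.56 (adjusted p = 0.291) and POLM at -0.78 ± 0.31 (adjusted p = 0.209, limma). MAD2L2 passed with no filter on low values (adjusted p = 0.0373), with the span trend removed (0.0434) and without day 0 G1 clone 1 (1.74, adjusted p = 0.0123). It stood at 1.38 (adjusted p = 0.0790) without day 0 G1 clone 7. POLQ stood at 1.69 (adjusted p = 0.0610) without that library and passed in clone 1 alone (adjusted p = 0.0254). In S against G1, 0 members and 0.613% of tested genes (0.573% higher) passed by limma, and 0 members passed by limma-voom on the reads. An unadjusted p under 0.05 by limma was held by 3 members and by 12.8% of all tested genes. The 3 were POLH at 1.13 ± 0.35, MAD2L2 at 0.96 ± 0.32 and POLQ at 1.31 ± 0.50 (adjusted p 0.231, 0.258 and 0.323). POLQ passed in clone 1 alone (adjusted p = 0.00868) and without day 0 G1 clone 7 (1.88, adjusted p = 0.0440), and MAD2L2 without day 0 G1 clone 1 (adjusted p = 0.0452). At day 28 the S and G2 libraries of REV3L and POLN, both of clone 1, lay 0.04 to 0.26 above the G1 mean of both clones. Within clone 1, S and G2 minus G1 at day 28 were -0.17 and -0.16 for REV3L and 0.23 and 0.08 for POLN.

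In POLQ and MAD2L2 the means of the phases lay farther apart at day 28 than at day 0, and no test of that difference passed. In POLQ, S exceeded G1 by 2.57 at day 28 and by 0.40 at day 0, and G2 exceeded G1 by 2.17 at day 28 and by 0.23 at day 0, on the log2 scale. The day 28 S and G2 libraries are of clone 1, while the G1 means hold both clones, which differ in POLQ. Within clone 1, S exceeded G1 in POLQ by 1.95 at day 28 and by 1.06 at day 0. G2 exceeded G1 by 1.55 at day 28 and by 0.92 at day 0. In MAD2L2, G2 exceeded G1 by 2.15 at day 28 and by 0.74 at day 0. Within clone 1 the values were 2.12 at day 28 and 0.29 at day 0. The test of the difference itself, the day 28 change in S and G2 together minus that in G1, gave 2.08 ± 0.67 for POLQ (95% interval 0.59 to 3.56; limma, unadjusted p = 0.0111, adjusted p = 0.318) and 1.11 ± 0.45 for MAD2L2 (adjusted p = 0.408). No member passed, and 0 of 12391 genes did (0%), with 1382 at an unadjusted p under 0.05, 2 of them members, and 0 by limma-voom. In clone 1 alone, where 1.23% of genes passed, the POLQ value was 0.76 (adjusted p = 0.528) and that of MAD2L2 1.56 (adjusted p = 0.0737). Without day 0 G1 clone 7 the POLQ value was 1.38 (adjusted p = 0.414) and that of MAD2L2 1.56 (adjusted p = 0.321).

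No member passed the test of clone 7 against clone 1 by limma with clone, day and phase as terms, a comparison that called 0.613% of tested genes. POLH was closest, at -0.67 ± 0.30 (unadjusted p = 0.0459, adjusted p = 0.312), and was lower in clone 7 in each of the 3 pairs of one day and phase, at -1.04 in day 28 G1, -0.47 in day 0 G1 and -0.56 in day 0 S. By limma-voom 0 members passed. POLH stood at -0.76 (adjusted p = 0.266) without day 0 G1 clone 7. The other 9 members lay between -0.37 and 0.44. In G1, clone 7 minus clone 1 was -1.25 at day 28 and 1.38 at day 0 for POLQ, and -1.59 at day 28 and 0.80 at day 0 for POLI.

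For 7 members the span could be divided at the end of a shorter deposited row, the one nearest the middle. In 5 of them both parts passed the filter, as in 5931 of 7836 divided genes, while POLK and REV1 held too few reads in their 5′ parts. Over all phases, REV3L and POLN rose in both parts, MAD2L2 fell in both, POLM rose in its 3′ part and POLL fell in its 5′ part. The counts were 2 members higher and 2 lower in the 5′ part, where 26.9% and 28.3% of genes were called, and 3 higher and 1 lower in the 3′ part, where 25.6% and 26.5% were called. The difference between the parts changed with day in 1 member, POLL, where 14.4% of genes were called in the direction of the 3′ part and 16% in that of the 5′ part. The division was chosen after the data were seen. Without day 0 G1 clone 7, the REV3L ratio of 3′ over 5′ reads fell by 1.65 (adjusted p = 0.0379), and without day 28 G2 or without day 0 G2 that of POLM rose by 0.93 (adjusted p = 0.0363 and 0.0351). Without day 0 G1 clone 7, the called changes in single parts stood, at 3.43 in the 5′ and 1.78 in the 3′ part of REV3L, 1.83 and 2.38 in POLN, -1.34 and -0.88 in MAD2L2, 0.98 in the 3′ part of POLM and -1.31 in the 5′ part of POLL (adjusted p 0.000127 to 0.0274).

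**Figure D3:**
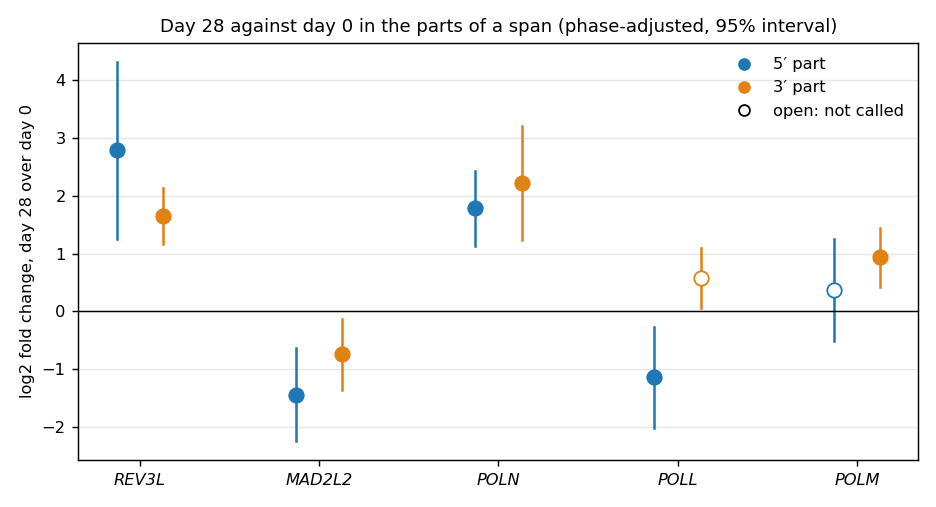
Log2 fold change of day 28 over day 0 with its 95% interval in the 5′ part (blue) and the 3′ part (orange) of the span of 5 members, with open circles where the adjusted p was 0.05 or more. POLL is the member whose parts lie on opposite sides of 0, at -1.14 and 0.58.

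In POLL the 5′ 3.76 kb (chromosome 10, 101583602 to 101587360) held 135, 157, 39 and 78 reads in day 28 G1 clone 1, G1 clone 7, S and G2, and 541, 35, 234, 89 and 177 in day 0 G1 clone 1, G1 clone 7, S clone 1, S clone 7 and G2. The 3′ 4.15 kb (101579453 to 101583601) held 513, 562, 395 and 684 reads at day 28 and 1072, 58, 401, 207 and 314 at day 0, in the same order. The log2 ratio of 3′ over 5′ reads was 1.84 to 3.33 at day 28 and 0.73 to 1.22 at day 0. Over all phases the 5′ part fell by 1.14 ± 0.40 (SE; limma, adjusted p = 0.0302), the 3′ part stood at 0.58 ± 0.24 (adjusted p = 0.0591), and their ratio rose by 1.72 ± 0.30 (adjusted p = 0.00319), against a median of 0.15 over all divided genes. Under its alternatives, among them each library left out in turn, the ratio lay between 1.45 and 1.93 with adjusted p between 0.00275 and 0.0236. In G1 the 5′ part stood at -0.30 ± 0.44 (limma, adjusted p = 0.621) and was not called. Its log2 values were 8.53 and 8.60 in day 28 G1 (clones 1 and 7), 6.45 in S and 7.34 in G2. At day 0 they were 8.29 to 8.91, so the lowest values were those of the single day 28 S and G2 libraries. The ratio over all divided genes had library medians of 1.43 to 1.60 at day 28 and 1.44 to 1.64 at day 0. POLL lies wholly within DPCD on the opposite strand, which stood at 10.32 to 11.39 at day 28 and 11.14 to 11.84 at day 0 and fell by 0.67 ± 0.26 (limma, adjusted p = 0.0423).

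**Figure D4:**
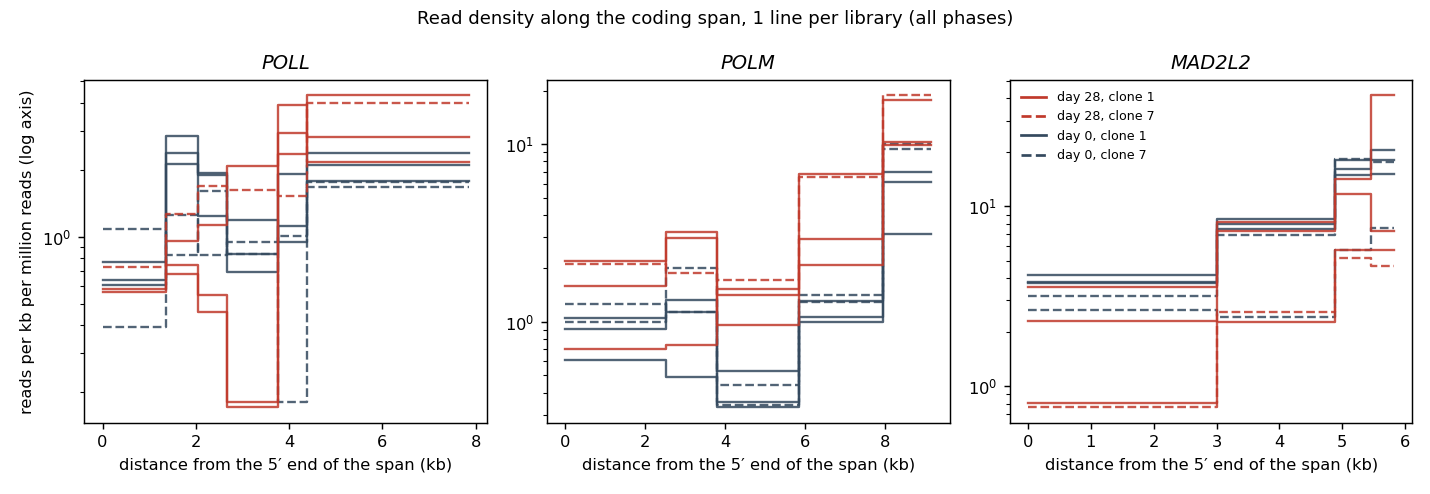
Read density in RPKM (log axis) along the coding span of POLL, POLM and MAD2L2, from the 5′ end in kb, between the ends of the deposited rows, with 1 line per library, day 28 in red and day 0 in dark grey, solid for clone 1 and dashed for clone 7. Stretches under 0.3 kb are left out, and a line is missing where a library had no read, as in the first stretch of POLL in day 28 S. In POLL the day 28 S and G2 lines are lowest between 2.67 and 3.76 kb.

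In REV3L the 5′ 66.5 kb, of which 0.705% is exonic, held 296, 374, 293 and 113 reads in day 28 G1 clone 1, G1 clone 7, S and G2, against 35, 32, 15, 29 and 31 in day 0 G1 clone 1, G1 clone 7, S clone 1, S clone 7 and G2. That part rose by 2.78 ± 0.70 and the 3′ 116.4 kb by 1.66 ± 0.22 (SE; limma, adjusted p = 0.00578 and 0.000167), with no called change in their ratio (-1.13 ± 0.62, adjusted p = 0.192). Between 10.8 and 66.5 kb from the 5′ end the density was 0.0254 to 0.101 RPKM at day 28 and 0.00228 to 0.0406 at day 0. In day 28 G2 it was 0.0254, below the olfactory receptor density of 0.0273 in that library. With the olfactory density subtracted, the REV3L log2 fold change over the whole span was 1.73 (adjusted p = 0.000336).

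The 3′ 107.3 kb of POLN, which is free of HAUS3, held 331, 410, 279 and 271 reads in day 28 G1 clone 1, G1 clone 7, S and G2, against 79, 17, 76, 81 and 69 in day 0 G1 clone 1, G1 clone 7, S clone 1, S clone 7 and G2. It rose by 2.22 ± 0.45 and the 5′ 49.8 kb by 1.78 ± 0.30 (SE; limma, adjusted p = 0.00174 and 0.000462). A processed pseudogene of 1900 bases, AL136360.1, lies in the 3′ part on the same strand, and reads of it cannot be told apart from those of POLN. MAD2L2 fell by 1.44 ± 0.37 in its 5′ 3.01 kb and by 0.74 ± 0.28 in its 3′ 2.82 kb (adjusted p = 0.00608 and 0.0437). In G1 the 5′ part stood at -2.40 ± 0.36 and the 3′ part at -1.19 ± 0.40 (adjusted p = 0.00540 and 0.0471), where 19.2% and 18.5% of genes were called lower. POLM stood at 0.37 ± 0.41 in its 5′ 3.8 kb (adjusted p = 0.457) and rose by 0.94 ± 0.23 in its 3′ 5.58 kb (adjusted p = 0.00596).

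Over all phases PCNA fell, and the genes that act on it went both ways. Of 18 regulators of translesion synthesis and of PCNA ubiquitination, the modification of the sliding clamp that admits translesion enzymes, 4 rose and 7 fell over all phases, with a median log2 fold change of -0.28, where 28.6% and 26.6% of all tested genes were called higher and lower. PCNA itself fell by 1.78 ± 0.35, its partner PCLAF by 1.79 ± 0.52 and UBE2N, the conjugating enzyme of the error-free branch, by 1.48 ± 0.23, and the deubiquitinase USP7 fell by 1.14 ± 0.24 (limma, adjusted p = 0.00160, 0.0130, 0.000427 and 0.00238). Each of these 4 is also part of other pathways. In G1 and in S, PCNA stood at -2.70 and -0.44, PCLAF at -2.73 and 0.16, UBE2N at -1.78 and -1.20 and USP7 at -1.06 and -1.32. The median of the 18 genes was -0.64 in G1 and 0.16 in S, where day 28 had 1 library. The 4 that rose, named after their values were seen, were the ubiquitin ligases RAD18 (0.86 ± 0.22) and SHPRH (1.01 ± 0.29), which modify PCNA, the ligase RFWD3 (0.86 ± 0.28) and the translocase ZRANB3 (0.91 ± 0.23; adjusted p 0.00651 to 0.0210). Of 7 shieldin and 53BP1 partners of MAD2L2, SHLD1 rose by 1.13 ± 0.40 and TRIP13, the ATPase that reopens MAD2L2, fell by 1.76 ± 0.33 (adjusted p = 0.0315 and 0.00125), with a median of -0.05.

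Of 12 partners of POLQ in theta-mediated end joining, 1 rose and 8 fell, with a median of -0.68. For this and each list below, 28.6% of all tested genes were called higher and 26.6% lower. PARP1, which senses strand breaks, fell by 2.05 ± 0.28, the flap nuclease FEN1 by 1.56 ± 0.32, APEX2 by 1.28 ± 0.23 and RHNO1 by 1.04 ± 0.23 (limma, adjusted p 0.000186 to 0.00311). The nuclease subunit MRE11, named after its value was seen, rose by 0.68 ± 0.22 (adjusted p = 0.0211). Of 11 tested partners of POLL and POLM in non-homologous end joining, 4 rose and 3 fell, with a median of 0.44. The 3 that fell were the Ku subunits XRCC6 (-1.52 ± 0.22) and XRCC5 (-1.23 ± 0.17) and the kinase PRKDC (-1.04 ± 0.16), and APLF, which binds Ku, rose by 1.02 ± 0.35 (adjusted p 0.000200 to 0.0290). DNTT, the template-independent relative of POLM, was too low to test. Of 15 replicative and repair polymerase genes, 4 fell and 2 rose (median -0.35), and the largest falls were in the primase subunit PRIM1 (-1.89 ± 0.38) and the accessory subunits POLE3 (-1.46 ± 0.24), POLD2 (-1.36 ± 0.23) and POLE4 (-1.29 ± 0.25). POLD2 is also an accessory subunit of polymerase zeta. The changes in this paragraph are over all phases. Medians in G1 and in S were -0.95 and -0.50 for theta-mediated and 0.22 and 0.17 for non-homologous end joining. For the polymerases they were -0.67 and 0.37. Without day 0 G1 clone 7 the counts higher and lower were 4 and 7 for the PCNA list, 1 and 1 for shieldin, 1 and 7 for theta-mediated and 3 and 3 for non-homologous end joining. They were 1 and 4 for the polymerases. Of all tested genes, 53.3% were called in either direction without that library, 3481 higher and 3124 lower. Of 12 genes that check the phases, 0 rose and 11 fell (9 without that library), with a median of -1.76, and their share in the changes of the members was not tested.

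Across the 9 libraries, which share the days and phases, REV3L and POLN had a Pearson correlation of 0.972, REV3L and REV1 one of 0.882, and MAD2L2 and REV1 one of -0.865. They were 0.99, 0.927 and -0.862 without day 0 G1 clone 7. The genes most like REV3L were TEAD1, MED13L and ERC1 (0.991 to 0.994), and 9.43% of tested genes exceeded 0.9 with it. Those most like POLN were PPFIBP2, ATF7-NPFF and PHACTR4 (0.985 to 0.987), and those most like REV1 were DOCK5, ZNF700 and ANKMY1 (0.980 to 0.992). MAD2L2 was nearest to ELP6, H2AX and DAXX (0.964 to 0.968), and POLM to TMEM154 and SEMA3B (0.977 to 0.982). POLQ was nearest to CEP250, CENPJ and HAUS3 (0.972 to 0.979), POLH to TMEM237, PGBD1 and RCCD1 (0.959 to 0.973), and POLI to SHPRH, ATP6V1C2 and ST8SIA1 (0.955 to 0.962). POLK and POLL were nearest to ATRX (0.952) and MLYCD (0.938), and 0.0404% and 0.0726% of tested genes exceeded 0.9 with them.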

How the data were processed

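The deposited file holds 80037 coding transcripts in 9 libraries as log2 values. Per the labels, RNA was sequenced as strand-specific poly(A) libraries, and per the submitters' processing notes HISAT2 2.1.0, DESeq2 and GRCh38 were used, with the counter and the scaling not given in the sources used here. The deposited log2 values are whole reads times a factor for each library: 100% of values up to 1000 reads came out whole within 0.05, and a transcript with no read was entered as 0.9 reads. Each transcript's reads cover its span from coding start to coding end with introns, since a row lying inside another row of the same gene never held more reads (0 of 1579743 comparisons).

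The 10 members and all gene lists were chosen with earlier results of these data known. Each gene was represented by its row with the highest mean, and 12391 of 20442 genes with a mean log2 of at least 7.01 (10 reads in the shallowest library) were tested as log2(value + 1) with limma 3.58.1 (lmFit, eBayes with trend, R 4.3.3, data.table version 1.17.8), Benjamini-Hochberg adjusted over all tested genes at 0.05. A fold change on this scale understates the change of low genes. Day and phase entered as additive terms, and single phases were tested as group means sharing 1 spread. Parts of spans were tested the same way on reads recovered from nested rows. Python 3.11.15, numpy 2.4.6, pandas 2.3.3 and matplotlib 3.10.9 served for the rest, and the fits were tested on simulated data. All 10 members are named in every comparison. Of each list, up to 4 called genes with the largest changes are named, and the 3 genes nearest to each member by Pearson correlation, where the files give them a symbol. Clone numbers mark the same clone across groups, so they pair libraries: deviations from group means correlated at 0.653, 0.115 and 0.296 over the 3 pairs of groups. Alternatives covered scaling, filter, pseudocount, clone as a replicate block, clone 1 alone, limma-voom, the row used, the span trend and each library left out, and, added after seeing the data, subtraction of the olfactory receptor density, other rows for POLI and POLN and the settings of the parts. Annotation was GENCODE on GRCh38. The values of 1 marker gene are not reported here.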

Additional observations from a re-analysis of the deposited data

How the results depend on the processing

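Over all phases, 5 members higher and 1 lower was the reported count, where 55.1% of all tested genes were called. It was the same with the clone as a replicate block (58.3%) and by limma-voom (57.0%). It was 4 and 1 with median-of-ratios scaling (56.1%), quantile normalization (51.7%), the span trend removed (49.2%) or background subtracted (51.8%). It was 3 and 1 with the row of middle level (52.6%), and 6 and 1 in clone 1 alone (54.7%). Leaving out 1 library gave 4 to 7 higher and 1 lower (46.4% to 53.4%). Over all phases the REV3L and POLN changes kept their calls under every alternative run (lowest 0.69 and 1.01, with the span trend removed). Quantile normalization turned POLK to -0.0077 and POLL to -0.10, and removal of the span trend turned POLQ to -0.12, none of them called. In G1, POLQ lay between -1.23 and 0.15 with 1 library left out, at 0.09 without the day 28 and at 0.15 without the day 0 clone 7 library, and 1 to 5 members were called with 1 library left out (20.3% to 39% of all tested genes). In S, 1 member was called with quantile normalization (6.55% of genes), with background subtracted (4.42%) and with the shorter POLN row (7.22%), 0 with the span trend removed (5.44%). With 1 library left out it was 0 to 2 (0% to 13.5%). Between S and G1, 1 member was called in clone 1 alone (2.01%) and 0 to 1 with 1 library left out (0% to 1.47%). Between G2 and G1, 2 were called with no filter (1.79%), in clone 1 alone (4.45%) and with the span trend removed (2.38%). The count was 0 with the clone as a replicate block (1.63%) and with background subtracted (2.07%), and 0 to 2 with 1 library left out (0.0404% to 3.71%). For the ratio of 3′ over 5′ reads, 1 to 2 members were called with 1 library left out. The cause of these shifts was not tested. The block changed 2 calls, adding REV1 in G1 and ending POLH between G2 and G1, and with 1 of the G2 libraries left out that phase rests on the other alone, assumed to vary like the rest. The share of all tested genes called in S was 15.6% with the block and 14.0% by limma-voom, against 7.27% as reported. The all-gene median over the phases was 0.01, and -0.10 with median-of-ratios scaling and -0.11 with quantile normalization, and single members moved by other amounts. No value could be had for clone 1 alone in G1 or in S, or in S without the day 28 S library, and the clone comparison has no block. The lowest members rest on few reads, 26 for POLH in day 0 G1 clone 7, which limits what single libraries show.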
